A study of Homo sapiens with 6 samples.

Results

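The DYRK kinases and the related HIPK kinases were followed at the transcript level in HK-2 cells, an immortalised epithelial line from the human proximal tubule. The family was taken by gene symbol as DYRK2, DYRK1A, DYRK1B, DYRK3, DYRK4, HIPK1, HIPK2 and HIPK3. Each of these 8 symbols had 1 row among the 33392 genes of the table, and all 8 passed the minimum mean of 0.5 FPKM that left 15121 genes for testing. FPKM is the number of sequenced fragments scaled to transcript length and to library size, so levels can be set beside each other between genes.

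RNA was sequenced from 6 libraries, and every culture had received TGF-β1, a cytokine that drives matrix production in the tubule, with a time point of 48 h. The control group holds 3 libraries with scramble siRNA, and the silenced group holds 3 libraries with siRNA-DYRK2. The study asks what DYRK2 does in renal fibrosis, and the comparison asks which transcripts differ when it is silenced under TGF-β1. Cells without TGF-β1 were not analysed here, HK-2 is a single cell line, and the labels do not say whether replicates came from separate cultures, and p-values therefore reflect library-to-library spread alone, which may be technical.

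DYRK and HIPK kinases belong to the CMGC group of protein kinases, together with the cyclin-dependent kinases, MAP kinases, GSK3 and CLK kinases. DYRK kinases phosphorylate a tyrosine of their own activation loop while they are being made and afterwards phosphorylate serines and threonines of other proteins. DYRK1A and DYRK1B form the largely nuclear class I, and DYRK2, DYRK3 and DYRK4 form class II. HIPK kinases are nuclear relatives that bind homeodomain factors and p53, and HIPK2 is known as a promoter of fibrosis in the kidney.

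The siRNA sequence is not given in the sources used here, so the target transcript is shown at a short word whose interest came from these same data. ATCTATA, with CATCTAT and the 8-base CATCTATA, had been singled out in an earlier scan of these fold changes, and its presence here supports nothing independently. The words were searched on the sense strand of 1 GENCODE v29 protein-coding transcript per gene. Each window of 30 bases below is on GRCh38, read 5′ to 3′ along the transcript, with the word in capitals, and the windows show how far the other kinases carry the word of DYRK2.

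DYRK2, coding region, chr12:67658579-67658608, plus strand: ggtgctatcaCATCTATAtccaagttacct

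DYRK2, 3′ untranslated region, chr12:67660104-67660133, plus strand: tatgagcaatgATCTATAtcaatttcaagg

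DYRK1A, 5′ untranslated region, chr21:37419058-37419087, plus strand: tatagactcaaATCTATAttatgacccact

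DYRK1A, 3′ untranslated region, chr21:37519691-37519720, plus strand: acagtccctgCATCTATttaagagttttga

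DYRK4, 3′ untranslated region, chr12:4614224-4614253, plus strand: actccctcttCATCTATtagccttgcttct

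HIPK2, 3′ untranslated region, chr7:139570234-139570263, minus strand: ctggaaaatcCATCTATtagggactttttg

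HIPK3, coding region, chr11:33348658-33348687, plus strand: tgctgtgaaaCATCTATcagacaggactct

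The 8-base word was found in DYRK2 and in no other member, and 4.31% of the 11917 tested genes with a searched transcript hold it. A 7-base word was found in DYRK1A, DYRK4, HIPK2 and HIPK3 as well, against 24.8% of searched genes that hold either ATCTATA or CATCTAT. These words were not in every annotated protein-coding transcript of their genes. CATCTATA was in 2 of 5 for DYRK2, and ATCTATA was in 2 of 18 for DYRK1A. CATCTAT was in 1 of 18 for DYRK1A, 1 of 4 for DYRK4, 1 of 3 for HIPK2 and 4 of 5 for HIPK3. The inner 6 bases ATCTAT were in none of the 11, 5 and 7 annotated protein-coding transcripts of HIPK1, DYRK3 and DYRK1B. Of the 11917 searched genes, 40.3% hold ATCTAT in the searched transcript, so most genes lack it there as well. The searched transcripts differ in length, from 2163 bases for DYRK3 to 17562 bases for DYRK1A, and a longer transcript holds a short word more often. A match is a match of letters only, and whether the siRNA binds at any of these sites was not tested.

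With the scramble siRNA the HIPK transcripts stood above the DYRK transcripts. HIPK2 was highest at 12.5 ± 0.110 FPKM (SD, n = 3), followed by HIPK3 at 8.87 ± 0.452 FPKM and HIPK1 at 6.61 ± 0.200 FPKM (SD, n = 3). DYRK2 came next at 5.95 ± 0.110 FPKM and was the highest of the 5 DYRK genes, 1.76-fold above DYRK3 at 3.39 ± 0.498 FPKM and above DYRK1A at 2.59 ± 0.0153 FPKM (SD, n = 3). DYRK4 at 0.883 ± 0.0208 FPKM and DYRK1B at 0.587 ± 0.155 FPKM (SD, n = 3) were the lowest. No 2 neighbours in this order overlapped in their 3 libraries.

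With siDYRK2 the order changed around DYRK2 itself. HIPK2, HIPK3 and HIPK1 kept the first 3 places, and DYRK2 moved from place 4 to place 6, below DYRK3 and DYRK1A. The ranges of DYRK3 and DYRK1A overlapped under siDYRK2, as did those of DYRK1B and DYRK4, so these neighbours did not differ beyond their spread. HIPK4, a further gene of the family outside the 8, had a highest value of 0.08 FPKM and stayed below the minimum for testing.

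**Figure D1:**
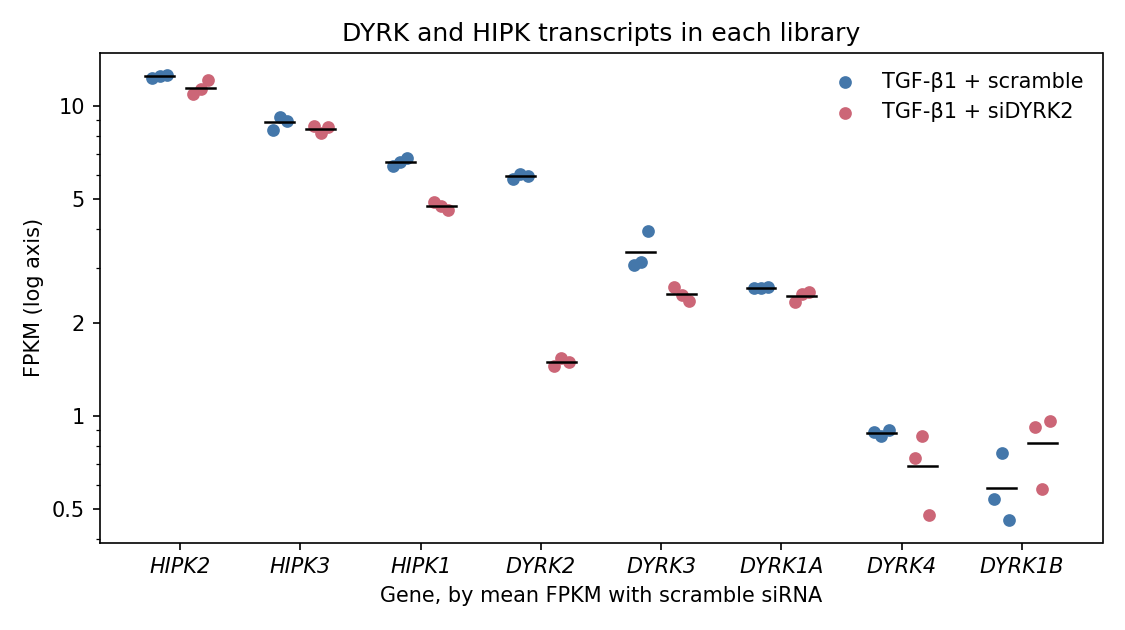
FPKM of the 8 kinase genes on a log axis, with 1 point per library, the mean as a black line, scramble in blue and siDYRK2 in red, all with TGF-β1. DYRK2 dropped from between 5.84 and 6.06 FPKM to between 1.45 and 1.54 FPKM, and the points of DYRK4, DYRK1B and HIPK3 overlapped between the groups.

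DYRK2, HIPK1 and DYRK3 were called lower in the siDYRK2 libraries, and no member was called higher. By limma at an adjusted p under 0.05 over all tested genes, 3 of the 8 members were lower (37.5%), against 17.9% of all tested genes, and 0 were higher, against 20.4%. In either direction the members' 37.5% stood near the 38.3% of all tested genes, and DYRK2, the gene targeted by the siRNA, is among the 3. Without DYRK2, 2 of the other 7 members were lower. The counts and the median that follow include DYRK2. At an unadjusted limma p under 0.05 the count was 4 of 8, all lower, against 47.6% of all tested genes in either direction and 22.3% lower. Scramble and siDYRK2 libraries were fully separated in FPKM for 5 of the 8 members, and for 51.7% of all tested genes. The median log2 fold change of the 8 members was −0.17, against 0.01 for all tested genes, where fold changes are differences of mean log2(FPKM + 0.5), siDYRK2 less scramble, which understates the change of low genes.

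DYRK2 (ENSG00000127334; GRCh38 chromosome 12, 67648338 to 67665406, plus strand) encodes the kinase that the siRNA targets. It also serves as the scaffold of an E3 ubiquitin ligase. Its FPKM was 5.84, 6.06 and 5.96 in the scramble libraries and 1.45, 1.54 and 1.49 in the siDYRK2 libraries. All 3 siDYRK2 libraries were low, and the groups were far from overlapping. Relative to the scramble mean, 25.1% ± 0.757 (SD, n = 3) of the transcript remained. Its log2 fold change was −1.69 (95% interval −1.82 to −1.57, limma adjusted p = 2.0e-06), place 17 among all tested genes ordered from the largest decrease. The exact two-sided permutation test gave p = 0.1, the smallest that 3 against 3 libraries allow. DYRK2 varied little within groups, with a coefficient of variation of 1.85% under scramble and 3.02% under siDYRK2.

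HIPK1 (ENSG00000163349; GRCh38 chromosome 1, 113929192 to 113977869, plus strand) encodes a nuclear kinase that acts with homeodomain factors. Its FPKM was 6.41, 6.61 and 6.81 with scramble and 4.92, 4.77 and 4.63 with siDYRK2. Each siDYRK2 library lay below each scramble library. The level under siDYRK2 was 72.2% ± 2.19 (SD, n = 3) of the scramble mean, and the log2 fold change was −0.43 (95% interval −0.54 to −0.32, limma adjusted p = 4.5e-04). In the order of decreases HIPK1 stood at place 1190.

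DYRK3 (ENSG00000143479; GRCh38 chromosome 1, 206635536 to 206684419, plus strand) encodes the class II kinase that dissolves stress granules and other condensates. Its FPKM was 3.06, 3.14 and 3.96 with scramble and 2.60, 2.45 and 2.35 with siDYRK2. Scramble replicate 3 stood above the other scramble libraries, and the groups did not overlap. DYRK3 stood at 72.8% ± 3.72 (SD, n = 3) of its scramble mean, a log2 fold change of −0.38 (95% interval −0.61 to −0.16, limma adjusted p = 0.017). Without scramble replicate 3 the fold change was −0.28 (limma adjusted p = 0.023). The call was narrowly lost without siDYRK2 replicate 2 (adjusted p = 0.0502), without siDYRK2 replicate 3 (0.0526) and with no filter on low values (0.05002).

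HIPK2 (ENSG00000064393; GRCh38 chromosome 7, 139561570 to 139777778, minus strand), the p53 kinase with a known part in renal fibrosis, did not pass the test. Its FPKM was 12.37, 12.49 and 12.59 with scramble and 10.95, 11.35 and 12.18 with siDYRK2. The groups did not overlap, although siDYRK2 replicate 3 came close to the scramble libraries. The log2 fold change was −0.12 (95% interval −0.22 to −0.01, limma adjusted p = 0.083). Without siDYRK2 replicate 3 it was −0.16 (limma adjusted p = 0.024), and without siDYRK2 replicate 1 it was −0.08 (limma adjusted p = 0.23). HIPK2 stayed uncalled in 14 of 15 alternative analyses.

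HIPK3 (ENSG00000110422; GRCh38 chromosome 11, 33256672 to 33357023, plus strand) stood at 8.37, 9.25 and 8.99 FPKM with scramble and at 8.63, 8.18 and 8.58 FPKM with siDYRK2. The groups overlapped, and the log2 fold change was −0.06 (95% interval −0.18 to 0.05, limma adjusted p = 0.35). HIPK3 encodes a kinase linked to JNK signalling and apoptosis.

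DYRK1A (ENSG00000157540; GRCh38 chromosome 21, 37365573 to 37526358, plus strand), a dosage-sensitive kinase that assembles the DREAM repressor of cell cycle genes, varied least with scramble. Its FPKM was 2.59, 2.58 and 2.61 in those libraries and 2.33, 2.47 and 2.52 with siDYRK2. All siDYRK2 values lay below, by little, and the log2 fold change of −0.07 did not pass the test (95% interval −0.21 to 0.06, limma adjusted p = 0.34).

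DYRK1B (ENSG00000105204; GRCh38 chromosome 19, 39825350 to 39834201, minus strand), also called MIRK, is a kinase of quiescent cells and was the only member with a positive fold change. It stood at 0.54, 0.76 and 0.46 FPKM with scramble and at 0.92, 0.58 and 0.96 FPKM with siDYRK2. The groups overlapped, and the log2 fold change of 0.28 had a wide interval from −0.10 to 0.66 (limma adjusted p = 0.22). DYRK4 (ENSG00000010219; GRCh38 chromosome 12, 4562204 to 4615302, plus strand), the least studied DYRK kinase, stood at 0.89, 0.86 and 0.90 FPKM with scramble. With siDYRK2 it stood at 0.73, 0.86 and 0.48 FPKM, and siDYRK2 replicate 3 was the lowest library. Its log2 fold change was −0.23 (95% interval −0.55 to 0.08, limma adjusted p = 0.22). The siDYRK2 libraries of DYRK4 and DYRK1B had coefficients of variation of 28.0% and 25.5%, and their intervals still allow a rise of DYRK1B or a fall of DYRK4 larger than the fall of HIPK1.

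**Figure D2:**
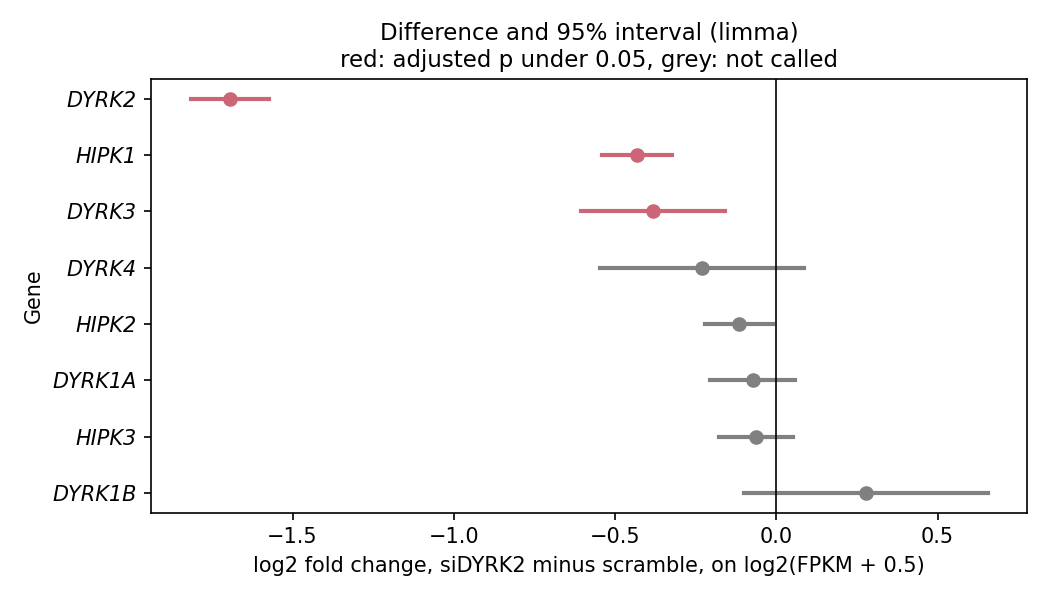
log2 fold change of each kinase gene on the log2(FPKM + 0.5) scale (point) with its 95% interval from limma (line), siDYRK2 minus scramble over 3 libraries each. DYRK2 stands at −1.69, HIPK1 and DYRK3 at −0.43 and −0.38 in red, and the 5 grey genes did not pass an adjusted p of 0.05.

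Set together, the 8 kinases made up a smaller sum in the siDYRK2 libraries. The summed level was 40.1, 41.8 and 42.3 FPKM with scramble and 32.5, 32.2 and 33.2 FPKM with siDYRK2. DYRK2 accounted for 4.46 FPKM of the fall of 8.73 FPKM between the means (51.1%), HIPK1 for 21.0%, HIPK2 for 11.3% and DYRK3 for 10.5%. Without DYRK2 the sum was 35.4 ± 1.07 FPKM with scramble and 31.1 ± 0.523 FPKM with siDYRK2 (SD, n = 3). These ranges did not overlap, which was also so for 51.7% of single tested genes. Of that difference of 4.27 FPKM, HIPK1 made up 1.84 FPKM and HIPK2, which was not called, 0.99 FPKM. The sum therefore says little about the low members.

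The make-up of the DYRK branch shifted with the loss of DYRK2. DYRK2 was 44.4% ± 1.33 of the summed DYRK level with scramble and 18.9% ± 0.743 with siDYRK2 (SD, n = 3). DYRK3 and DYRK1A, at 25.2% and 19.4% with scramble, then held 31.2% and 30.9% of it, although neither rose in FPKM. In the sum of all 8, the HIPK genes held 67.6% ± 0.401 with scramble and 75.8% ± 0.644 with siDYRK2, and DYRK2 14.4% ± 0.260 and 4.58% ± 0.179 (SD, n = 3). These shares were given no test, since they follow from the values of the members.

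**Figure D3:**
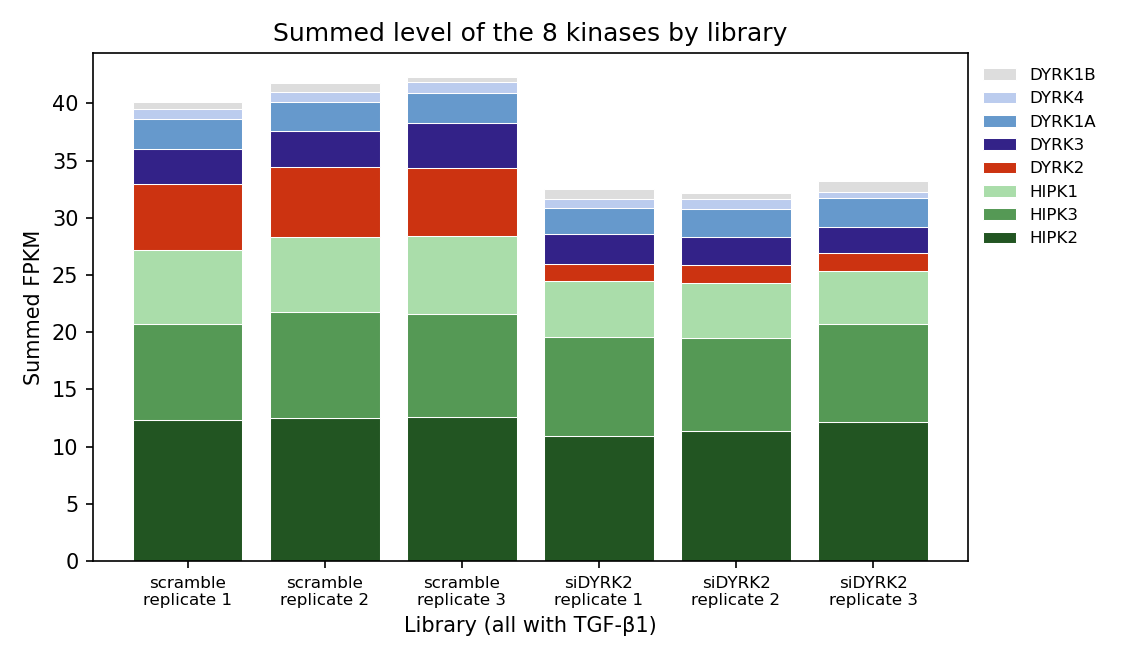
Summed FPKM of the 8 kinases in each library, stacked by gene, with HIPK genes in green, DYRK2 in red, the other DYRK genes in blue and grey. The 3 scramble libraries reach 40.1 to 42.3 FPKM and the 3 siDYRK2 libraries 32.2 to 33.2 FPKM, with the red DYRK2 segment shrinking from 14.4% to 4.58% of the sum.

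Genes with exons on the same bases had low levels where they had a row. Strand use is not given in the sources used here, so fragments of an antisense gene cannot be told apart from those of its partner. DYRK2 shares 594 exonic bases with an antisense gene at a mean of 0.00667 FPKM over the 6 libraries. HIPK1 shares 301 bases with HIPK1-AS1 at 0.163 FPKM, DYRK1A shares 360 bases with an antisense gene at 0.177 FPKM, and DYRK3 shares 23 bases with DYRK3-AS1 at 0.182 FPKM. DYRK4 shares 143 bases with a protein-coding gene on its own strand that was not analysed here.

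Genes were also ranked by how like their profile over the 6 libraries was to that of DYRK2. Likeness was the root mean square difference of log2(FPKM + 0.5) after subtraction of each gene's scramble mean, over 10654 other genes whose mean reached 2 FPKM. DYRK1B and DYRK4 lay below that minimum and could not be among the nearest. The DYRK2 libraries of each group lay close together, so this measure mostly follows the fold change. RPSAP47 (0.0499) and RPSA (0.0555), a pseudogene of a ribosomal protein gene and that gene itself, came first, and as near-identical copies they may share reads. They were followed by FMNL1-DT (0.0685), a divergent noncoding transcript, and by MSMO1 (0.0845) and MVD (0.0871), enzymes of sterol synthesis. RPSA stood at 79.7 ± 2.22 and 24.4 ± 1.31 FPKM and MVD at 25.8 ± 1.56 and 7.89 ± 0.599 FPKM with scramble and siDYRK2 (SD, n = 3). Of the other members, HIPK1 was nearest to DYRK2, with a difference of 0.895 and place 703, and DYRK3 came next at place 916. That order repeats the order of their fold changes given above and adds no separate result.

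Partners and regulators of the family changed in both directions. In a list of 26 such genes, 4 rose and 10 fell, which is 15.4% and 38.5% against 20.4% and 17.9% of all tested genes, and the median log2 fold change was −0.04. RCAN1, a calcineurin inhibitor and DYRK1A substrate, rose from 5.20 ± 0.156 to 6.32 ± 0.172 FPKM (SD, n = 3), a log2 fold change of 0.26 with a limma adjusted p of 0.0038. WSB1, a ubiquitin ligase subunit for HIPK2, rose from 8.12 to 8.91 FPKM (log2 fold change 0.13), a call lost in 7 of 15 alternative analyses.

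Acetyltransferase and scaffold genes were among those that fell. CREBBP, the acetyltransferase CBP, a coactivator of p53, fell from 9.24 ± 0.104 to 6.26 ± 0.0777 FPKM (SD, n = 3), a log2 fold change of −0.53 with a limma adjusted p of 7.1e-05. AXIN1, a scaffold that joins HIPK2 and p53, fell from 12.4 to 9.70 FPKM, and the scaffold RANBP9 from 34.3 to 27.8 FPKM. TP53INP1, a p53 target that binds HIPK2, fell from 3.81 ± 0.410 to 2.27 ± 0.219 FPKM (SD, n = 3). DCAF7, the adaptor of DYRK1A, DYRK1B and HIPK2, measured 8.55 ± 0.388 FPKM with scramble and 9.46 ± 0.547 FPKM with siDYRK2 (SD, n = 3), a difference that missed the threshold (log2 fold change 0.14, limma adjusted p = 0.088).

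Transcripts of reported substrates showed no common direction. Of 44 genes 42 were tested, 11 rose and 11 fell, each 26.2% against 20.4% and 17.9% of all tested genes, and the median lay at −0.02 on the log2 scale. CCND3, the cyclin D3 that DYRK1A marks for degradation, was 1.82-fold higher with siDYRK2, at 6.09 ± 0.264 FPKM against 3.34 ± 0.124 FPKM (SD, n = 3), with a limma adjusted p = 6.3e-05. SNAI1, the EMT factor Snail, rose from 1.47 ± 0.324 to 2.91 ± 0.285 FPKM, GLI2 of the Hedgehog pathway from 2.57 to 3.48 FPKM and FOXO1 from 2.85 to 3.79 FPKM. CDKN1C, the CDK inhibitor p57, fell from 3.09 ± 0.195 to 1.29 ± 0.235 FPKM (SD, n = 3), a log2 fold change of −1.01 with a limma adjusted p of 3.7e-04. JUN, an AP-1 factor primed for degradation by DYRK2, fell from 39.0 to 27.4 FPKM, RUNX1 from 11.7 to 9.02 FPKM and APP, the amyloid precursor, from 225 to 187 FPKM. These are transcript levels, and phosphorylation was not measured.

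Other CMGC kinases served as a comparison with related kinases, in a list that also holds the untested HIPK4. Of 56 genes 45 were tested, 11 rose (24.4%, against 20.4% of all tested genes) and 8 fell (17.8%, against 17.9%), so the share that fell stood at the background, and the median lay at −0.02 on the log2 scale. MAPK6, the atypical MAP kinase ERK3, fell from 25.4 ± 0.445 to 11.4 ± 0.709 FPKM (SD, n = 3), a log2 fold change of −1.12 with a limma adjusted p of 8.8e-06. CDK14 fell from 2.51 to 1.38 FPKM, CDK17 from 10.4 to 8.34 FPKM and MAPK13, the p38δ kinase, from 11.8 to 9.77 FPKM. CDK2 rose from 16.4 ± 0.162 to 22.1 ± 0.355 FPKM (SD, n = 3), with a limma adjusted p of 8.3e-05, CDK1 from 12.3 to 19.5 FPKM, CDK16 from 12.5 to 15.2 FPKM and CDK6 from 2.03 to 2.62 FPKM. The 3 lists were given no test as sets.

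**Figure D4:**
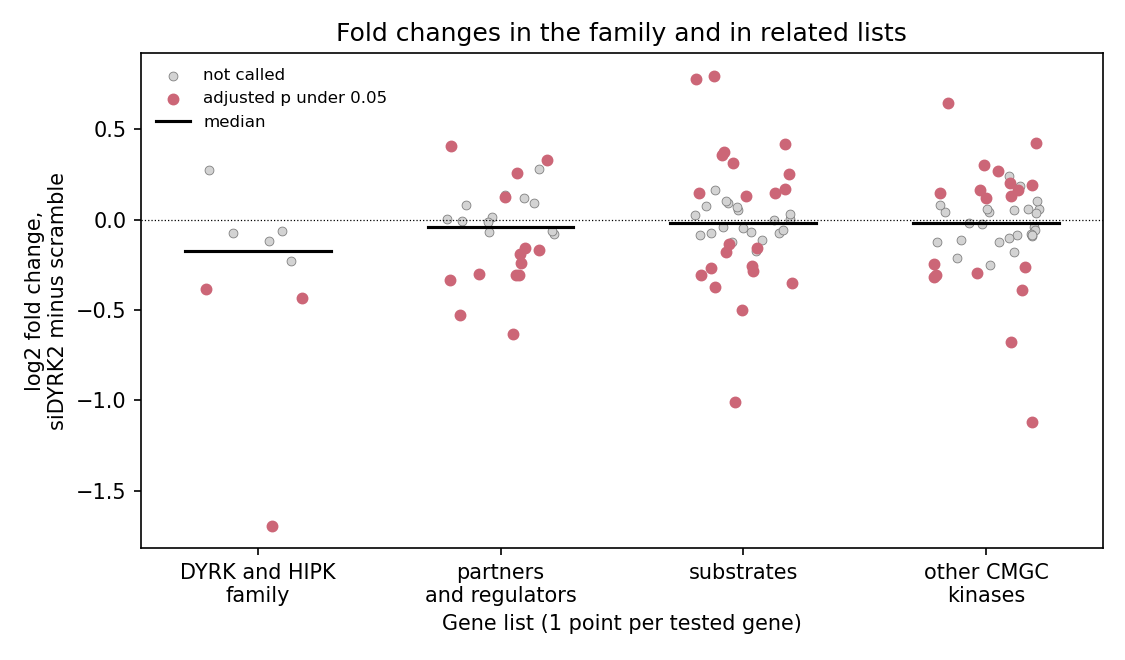
log2 fold change (difference of mean log2(FPKM + 0.5), siDYRK2 minus scramble) of each tested gene (point) in the family and in the lists of partners and regulators, substrates and other CMGC kinases, with the list median as a black line and genes with an adjusted p under 0.05 in red. The medians lie at −0.17, −0.04, −0.02 and −0.02, and the lowest point is DYRK2 at −1.69.

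The mitochondrially encoded share of the libraries was 26.3% to 27.8%. Their summed FPKM was 252318 to 255378, but FPKM is already scaled to library size, so near-equal sums say little about the libraries. The labelled cell type was checked against marker genes. All 9 epithelial markers had a mean of at least 0.5 FPKM, and their summed level was 442 to 457 FPKM with scramble and 328 to 339 FPKM with siDYRK2. Of 10 proximal tubule markers 9 had a row, and 8 of these stayed below a mean of 0.5 FPKM, so most of the defining tubule genes were nearly absent. Their sum was 4.65 to 5.09 FPKM with scramble and 3.80 to 4.12 FPKM with siDYRK2. Fibroblast markers summed to 0.37 to 0.42 FPKM with scramble and 0.64 to 0.81 FPKM with siDYRK2, and none of the 7 with a row reached a mean of 0.5 FPKM. Endothelial markers summed to 0.05 to 0.09 FPKM with scramble and 0.10 to 0.16 FPKM with siDYRK2, with none of 5 at the minimum. Of the immune markers only CD68, which epithelial cells also express, reached the minimum, and their sum was 11.3 to 17.8 FPKM with scramble and 17.0 to 17.8 FPKM with siDYRK2. The epithelial and tubule sums were lower and the fibroblast and endothelial sums higher in every siDYRK2 library, and their part in the fall of the kinase transcripts was not tested. In bulk RNA a lower level in fewer cells and less RNA per cell cannot be told apart.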

How the data were processed

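Per the labels' protocols, total RNA was isolated with Trizol, treated with DNase I and sequenced by Illumina. HISAT2, StringTie and GRCh38 are named in the submitters' processing notes, with no version, and the annotation and strandedness were not given in those sources. The deposited values are FPKM computed by the authors, with 2 decimals and 1 column per library. All 6 columns were matched by library name.

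The test was limma 3.58.1 (R 4.3.3) on log2(FPKM + 0.5), for genes whose mean FPKM reached 0.5, with a mean-variance trend and no block, and Benjamini-Hochberg adjustment over all 15121 genes at 0.05. The script was tested on simulated data. Intervals are limma's 95% intervals, not adjusted over genes. Sequences and coordinates are from GENCODE v29 (principal isoform, then the longest), read in Python 3.11.15.

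The members and lists were chosen with earlier results of these data known. Named genes are the 8 members, DCAF7, up to 4 genes per list and direction with the smallest adjusted p, and the 5 genes most like DYRK2; a few that the rule names are not reported here. HIPK4, the antisense genes and other genes in the closing section were chosen after their values were seen. In a search for whole reads in low values of single-transcript genes, many step sizes were tried and the best was kept for each library. At that step 26.0% to 30.1% of values fell within 0.1 of an integer. The 20% given by chance holds for 1 fixed step, not for the best of many, so no excess can be read from it. Reads were not recovered. Depth is therefore unknown, no count model was used, and no counting interval is given. FPKM is relative within a library.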

Additional observations from a re-analysis of the deposited data

How the results depend on the processing

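The 15 alternatives covered pseudocount, filter, scaling, trend, the replicate block and each library left out. None reversed a fold change of the 8 members, and the call of 6 members was the same under each alternative that tested them. A filter at a mean of 1 FPKM left out DYRK1B and DYRK4. The call of DYRK3 was lost under 3 alternatives and HIPK2 was called under 1, as given with their values. Over all genes 4470 to 5077 were called with 1 library left out, against 5793 with all. With the replicate block 4816 genes and 3 of the 8 members were called. Same-numbered libraries did not deviate together (r of deviations −0.077, 0.024 and −0.088 across genes), so the numbers were not taken as pairs. DYRK2 took 44.4% (scramble) and 18.9% (siDYRK2) of the sum when only the 5 DYRK genes were counted, against 14.4% and 4.58% of the sum of 8, because fewer genes enter the sum. Among the genes named from the lists or as nearest to DYRK2, mostly chosen for a small adjusted p, 7 of 450 refits lost the call, all of WSB1, and 0 reversed. Over whole lists the number called ranged over the alternatives from 10 to 16 for partners and regulators (14 with the settings used), from 17 to 22 for substrates (22) and from 15 to 21 for other CMGC kinases (19). Low genes such as DYRK1B and DYRK4 have the widest intervals, and depth is unknown.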

Other observations

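A few close relatives in the lists, chosen after their values were seen, are given here. CDK8 and CDK19, the alternative kinases of the Mediator complex, moved in opposite directions. CDK8 rose from 4.97 to 5.64 FPKM (log2 fold change 0.17, limma adjusted p = 0.021), and CDK19 fell from 3.69 to 2.86 FPKM (log2 fold change −0.32, limma adjusted p = 0.0094). CREBBP and its relative EP300, which are acetyltransferases, both fell, with log2 fold changes of −0.53 and −0.31 (limma adjusted p = 7.1e-05 and 0.0090).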
